A study of Mus musculus with 2 samples.

Results

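The cells described here are undifferentiated spermatogonia of the GFRA1 type, the germ cells at the base of the mouse seminiferous tubule that carry the receptor for GDNF. They were selected on their own transcripts from droplet RNA sequencing of testes at postnatal day (PD) 7, in which a count is a number of distinct captured molecules (unique molecular identifiers, UMIs). A cell was kept with at least 750 genes and at most 10% mitochondrial UMIs, and the rule then required at least 10000 UMIs. Germ cells had Ddx4 and Dazl counts that summed to 4 UMIs or more, at a rate of 3 or more per 10000 UMIs, and fewer than 5 UMIs of the somatic genes Clu, Acta2, Dlk1 and Dcn per 10000. GFRA1-type cells were the germ cells with at least 5 UMIs of Gfra1, Ret and Lhx1 together and with more than 2 times as many of these as of Kit and Stra8. This rule found 425 of 13789 kept cells, namely 260 of 5077 in the control library and 165 of 8712 in the Brca1 vKO library.

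Sertoli cells secrete GDNF, which binds the co-receptor GFRA1 and signals through the receptor tyrosine kinase RET to keep spermatogonia undifferentiated. Downstream, transcription factors such as ETV5, BCL6B, LHX1 and POU3F1 are induced and support self-renewal. Cells that leave this state pass through progenitors marked by SOX3, NEUROG3 and RARG and then, under retinoic acid, acquire KIT and STRA8.

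The study asked what the loss of BRCA1, a protein of homologous recombination repair, does to germ cells that form undifferentiated spermatogonia after birth. Brca1 vKO mice were Brca1 f/- with Vasa-Cre, a transgene active in germ cells only, so that the somatic cells of these mice keep a floxed allele beside the deleted one. Controls were littermates, whose alleles at Brca1 are not given in the labels. Each genotype is represented by 1 library of whole testes from 1 mouse at PD7. More cells were loaded for the Brca1 vKO library, because those testes are small. With 1 library for each genotype, a difference between genotypes cannot be told apart from a difference between libraries or mice, and no test was made. Shares and sums are given with exact 95% intervals that cover counting error only.

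The deposited tables held 120568700 UMIs in 5812 barcodes for the control and 165062097 UMIs in 9456 barcodes for the Brca1 vKO. GFRA1-type cells were among the deepest cells of both libraries. Their median was 45526 UMIs and 7749.5 genes in the control and 36008 UMIs and 7116 genes in the Brca1 vKO, and their summed counts came to 12449583 and 6402448 UMIs. Mitochondrial UMIs made up a median of 5.62% and 6.07%. The 2 tables shared 21 barcodes, of which 1 belonged to a control GFRA1-type cell and 0 to a Brca1 vKO one. Scrublet marked 4 control (1.54%) and 2 Brca1 vKO (1.21%) GFRA1-type cells as likely doublets, against 3.17% and 2.86% of all kept cells, and these cells were retained. Sertoli cells served as a reference for differences between the libraries outside the germ line (1921 control and 3781 Brca1 vKO cells). They were kept cells of at least 10000 UMIs that did not meet the germ cell minimum of Ddx4 and Dazl. They had at least 5 UMIs of Sox9, Amh, Aard and Wt1 per 10000 and fewer than 5 of Acta2, Dlk1 and Dcn.

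GFRA1-type cells made up 5.12% (95% Clopper-Pearson interval 4.53 to 5.76) of the kept cells in the control and 1.89% (1.62 to 2.20) in the Brca1 vKO library. Their share in the Brca1 vKO was therefore 0.370 times that in the control (0.302 to 0.451). The share of all germ cells of at least 10000 UMIs was lower still, with 610 and 199 cells and a ratio of 0.190 (0.161 to 0.223). Another 219 control and 32 Brca1 vKO barcodes met the germ rule below 10000 UMIs and are left out of the germ cell counts here. KIT-type cells, defined by the mirror image of the rule, came to 187 control and 8 Brca1 vKO cells, a share ratio of 0.0249 (0.0106 to 0.0501). Germ cells that met neither definition, called intermediate here, numbered 163 and 26, a share ratio of 0.0930 (0.0590 to 0.141). GFRA1-type cells were thus 42.6% of the control and 82.9% of the Brca1 vKO germ cells of at least 10000 UMIs. With at most 5% mitochondrial UMIs, which left 77 and 30 cells, the share ratio of GFRA1-type cells was 0.196. When each cell was thinned to 10000 UMIs before the rule, which left 133 and 121 cells, it was 0.530. The number of cells loaded and the dissociation also enter these shares, and their part was not tested.

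**Figure D1:**
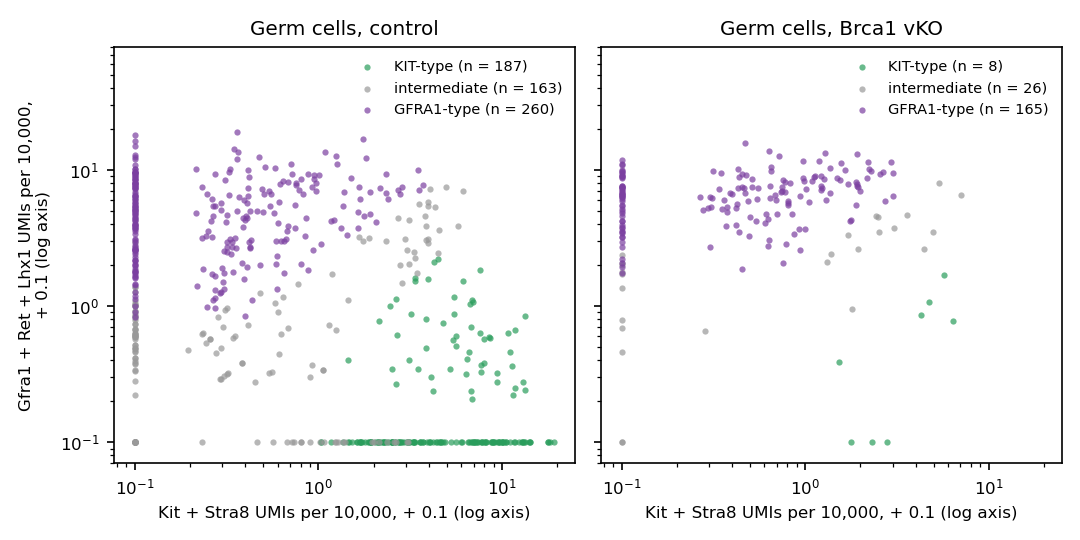
Every germ cell of at least 10000 UMIs in the control (left) and the Brca1 vKO library (right). The horizontal axis holds Kit and Stra8 UMIs per 10000 and the vertical axis Gfra1, Ret and Lhx1 UMIs per 10000. Both are log axes after adding 0.1. The 260 control GFRA1-type cells (purple) stand beside 187 KIT-type (green) and 163 intermediate cells (grey), whereas the 165 Brca1 vKO GFRA1-type cells stand beside 8 and 26.

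Cells lay close to both thresholds of the rule, on either side. In the control, 9 GFRA1-type cells had exactly 5 UMIs of Gfra1, Ret and Lhx1, and 15 germ cells lay 1 UMI below the minimum. The summed level of Id4, an inhibitor of differentiation that marks stem cells, was 34.99 CPM (UMIs per 1000000) in the former and 37.0 in the latter, and that of Zbtb16, which encodes the transcription factor PLZF, was 490 and 396 CPM. At the other boundary, 22 control GFRA1-type cells had at most 3 times as many Gfra1, Ret and Lhx1 as Kit and Stra8 UMIs, and 18 germ cells had 1 to 2 times as many. Id4 was at 55.7 CPM in these GFRA1-type cells and 32.0 in these germ cells, and Zbtb16 at 306 and 360. In the Brca1 vKO the corresponding numbers were 3 and 3 cells at the minimum and 7 and 10 cells at the ratio. Id4 was at 229 and 143 CPM at the minimum and at 131 and 76.1 at the ratio. Zbtb16 was at 94.3 and 112 CPM and at 207 and 214.

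The cells were also described with 12 markers of undifferentiated spermatogonia that the rule did not use. The rule itself separated GFRA1-type from KIT-type cells, so this comparison is a description and no test of the label. In the control library, 10 of the 12 were higher in GFRA1-type than in KIT-type cells. Id4 stood at 81.4 against 5.09 CPM, and Etv5, a GDNF-induced transcription factor, at 79.2 against 9.03 CPM. Nanos2, an RNA-binding protein of the most primitive spermatogonia, had 6.18 CPM against 0 UMIs, where 3 counts would give 0.312 CPM. Cdh1, which encodes E-cadherin, stood at 32.5 against 5.61 CPM, Nanos3 at 62.5 against 13.6 and Zbtb16 at 373 against 127. The remaining 2 went the other way. Uchl1, a ubiquitin hydrolase of spermatogonia, was at 661 in GFRA1-type against 1087 CPM in KIT-type cells, and Utf1 at 10.1 against 14.3. A wider list of undifferentiated spermatogonia genes summed to 3391 CPM in control GFRA1-type, 3073 in intermediate and 2302 in KIT-type cells. Ddx4 and Dazl, the germ cell genes of the rule, were at 455 and 1052 CPM. In control Sertoli cells, whose definition limits both genes, they were at 2.18 and 6.99 CPM.

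Over all genes, the same control cells differed from KIT-type cells by at least 2-fold in 308 genes that were higher (2.34% of 13137 genes tested) and 146 that were lower (1.11%), on the scale log2(CPM + 10) that is used throughout. The rule drew this contrast, so these values only describe the cells. Kcnc2, a voltage-gated potassium channel, stood at 871 against 23.2 CPM, and Glis3, a zinc finger transcription factor, at 1071 against 134 CPM. Tcl1, an activator of AKT signalling, stood at 62.7 against 1.45 CPM, Nefm, a neurofilament subunit, at 82.4 against 2.91, and Rspo2, a secreted enhancer of WNT signalling, at 140 against 10.8. Lowest relative to KIT-type cells after Kit and Stra8 was Cited1, a transcriptional co-activator, at 15.2 against 125 CPM. The cell cycle kinase Cdk6, at 20.1 against 109 CPM, and Crabp1, a retinoic acid-binding protein, at 68.8 against 355 CPM, followed among others. Glis3 and Kcnc2 were found in almost every cell. With all cells at an equal depth of 10000 UMIs, Glis3 had a UMI in 100% of the control and 98.8% of the Brca1 vKO GFRA1-type cells, and Kcnc2 in 95.8% and 98.2%. Between the libraries the level of Kcnc2 was 871 and 944 CPM and that of Glis3 1071 and 991.

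**Figure D2:**
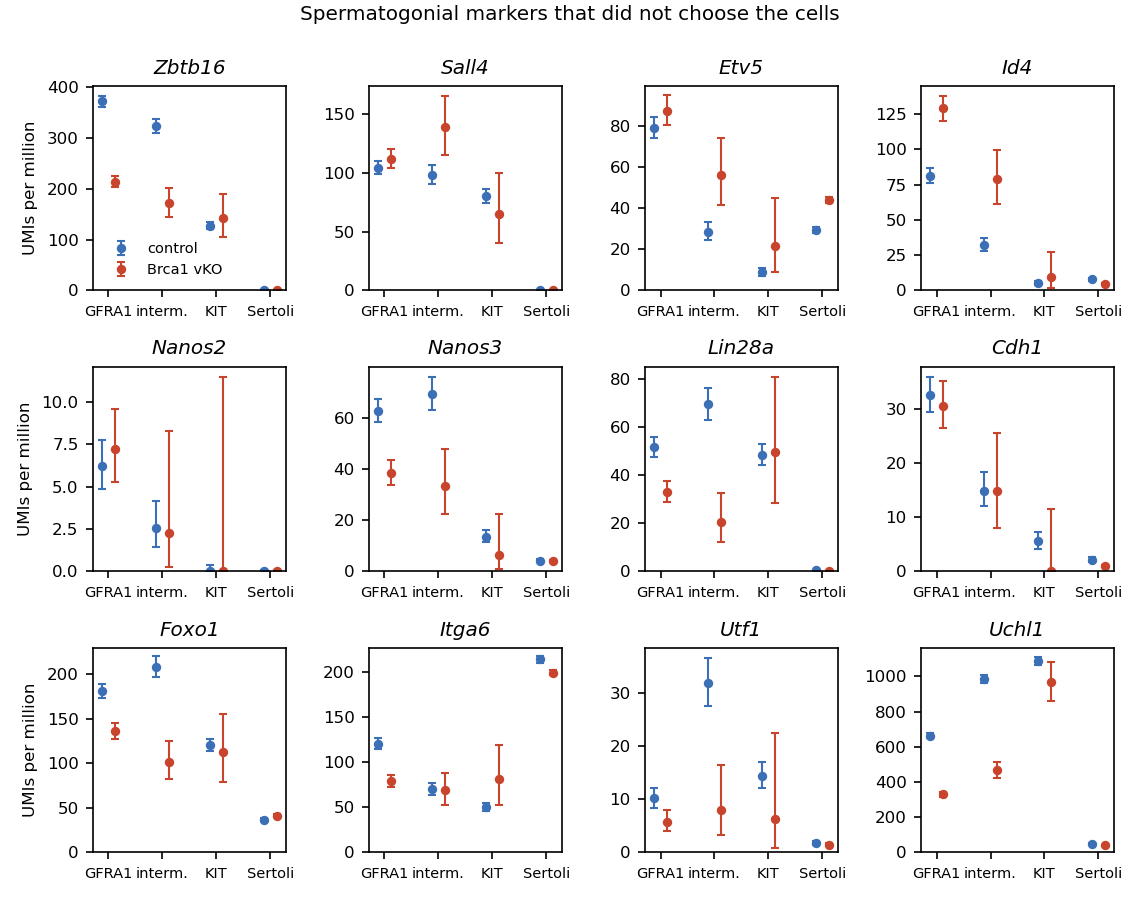
Levels of the 12 spermatogonial markers outside the rule, in CPM of the summed cells (vertical axes), for GFRA1-type, intermediate, KIT-type and Sertoli cells of the control (blue) and Brca1 vKO (red) libraries, with bars for the exact 95% Poisson interval. Id4 and Etv5 are highest in GFRA1-type cells of both libraries among the germ cells, and Zbtb16 is at 373 CPM in the control and 214 CPM in the Brca1 vKO.

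Brca1 itself (chr11:101488764-101551955 in GRCm38, minus strand) was counted at 74.7 CPM in control and 43.3 CPM in Brca1 vKO GFRA1-type cells, a ratio of 0.579 (exact conditional 95% interval 0.505 to 0.663). In Sertoli cells, where Vasa-Cre is not active, the levels were 29.4 and 25.9 CPM. The UMIs of this assay are counted per gene near a transcript end, and the floxed exons lie inside the gene, so a transcript that lacks them is still counted. The remaining level therefore does not show that deletion was incomplete, and the count does not check the label. Of the 19 other genes of homologous recombination, 0 passed 2-fold in either direction. Bard1, the partner of BRCA1, stood at 45.9 and 55.6 CPM, and Brca2 at 123 and 116.

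Across all genes, Brca1 vKO GFRA1-type cells differed from control ones at 2-fold in few genes. Of 12582 genes whose summed UMIs reached 50 over both libraries, 90 were higher (0.715%) and 69 were lower (0.548%), and the median log2 ratio was -0.02. Among the 90 higher genes, 56 were also past 2-fold in the intermediate cells and 4 in Sertoli cells. Of the 69 lower genes, 45 were past 2-fold in the intermediate and 4 in Sertoli cells. The share of all genes past 2-fold in these other cells was not computed, so these counts have no background and are a description only. The 163 control and 26 Brca1 vKO intermediate cells also come from the same 2 libraries. The shares 0.715% and 0.548% are the background against which the gene groups below are read.

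Several genes of the p53 pathway were higher in Brca1 vKO GFRA1-type cells. The transcription factor p53 binds paired copies of a decamer, the p53 half-site, in the genes it activates, and the promoter windows of Cdkn1a and Ccng1, the genes of the pathway with the highest log2 ratios, are shown for this reason. Each is the 250 bases before the start of the gene in RefSeq, GRCm38.p6, 5′ to 3′ on the gene's strand, with every match to the half-site in capitals (Cdkn1a, chr17:29090729-29090978, plus strand; Ccng1, chr11:40755287-40755536, minus strand).
Cdkn1a: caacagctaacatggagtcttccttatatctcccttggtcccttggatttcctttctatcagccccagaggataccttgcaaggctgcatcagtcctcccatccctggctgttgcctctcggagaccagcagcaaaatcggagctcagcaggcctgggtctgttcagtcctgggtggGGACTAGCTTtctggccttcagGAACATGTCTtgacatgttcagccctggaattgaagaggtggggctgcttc
Ccng1: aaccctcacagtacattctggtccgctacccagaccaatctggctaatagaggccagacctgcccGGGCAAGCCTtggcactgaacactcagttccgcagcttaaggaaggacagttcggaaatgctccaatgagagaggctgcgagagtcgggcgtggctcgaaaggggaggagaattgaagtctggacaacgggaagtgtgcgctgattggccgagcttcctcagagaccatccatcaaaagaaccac
The Cdkn1a window holds 2 matches, whose first bases lie at -73 and -51 from the start, and the Ccng1 window holds 1, at -185. The half-site reads the same on both strands, and 7.13% of all 32851 promoter windows of this length hold a match. Of 34 windows of 25 genes of the p53 list, 11 did (32.4%), and the list is made of genes of that pathway. These windows belonged to 11 genes, of which only Cdkn1a and Ccng1 were past 2-fold. Bax, Mdm2, Trp53 and Sesn1 were among the others, and Sesn1 had the lowest ratio of the list. A link between a match and the ratio was not tested. A second start of Cdkn1a and the window of Eda2r held none. A match describes these letters only, and binding was not measured.

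Cdkn1a, which encodes the cyclin-dependent kinase inhibitor p21, was at 15.3 CPM (13.2 to 17.6) in the control and 138 CPM (129 to 147) in the Brca1 vKO GFRA1-type cells, a ratio of 9.04 (7.72 to 10.6). Sertoli cells of the same libraries had 2.50 and 4.07 CPM. Ccng1, which encodes cyclin G1, was at 39.5 and 221 CPM, a ratio of 5.60 (5.05 to 6.22), against 17.4 and 15.04 CPM in Sertoli cells. The inhibitor and the cyclin were thus higher in the germ cells, and Ccng1 was slightly lower in the Sertoli cells. Eda2r, a receptor of the TNF receptor family that binds ectodysplasin, was at 2.25 and 25.5 CPM, a ratio of 11.3 (7.55 to 17.6), and Phlda3, an inhibitor of AKT, at 5.22 and 30.1 CPM, a ratio of 5.77 (4.34 to 7.77). The pro-apoptotic BH3-only genes Bbc3 (PUMA) and Pmaip1 (NOXA) were at 1.85 and 17.6 CPM and at 51.7 and 126 CPM, ratios of 9.55 (6.06 to 15.7) and 2.43 (2.19 to 2.70).

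Btg2, an antiproliferative gene that is also among the handling stress genes, completed the 7 genes of the list past 2-fold, with 74.9 and 171 CPM in GFRA1-type and 769 and 880 CPM in Sertoli cells. Of the 28 p53 pathway genes that passed the minimum of UMIs, 7 were thus at least 2-fold higher and 0 lower, and 25 had a log2 ratio above 0, with a median of 0.51 beside -0.02 over all genes. Bbc3 and Eda2r had under 50 UMIs in the control and passed the minimum through the Brca1 vKO library, and leaving out cells with over 5% mitochondrial UMIs took Btg2 to a log2 ratio of 0.66 and Pmaip1 to 0.97. Other members stood closer together. Bax, the pore-forming pro-apoptotic protein, was at 231 and 340 CPM, Mdm2, the ubiquitin ligase that degrades p53, at 97.0 and 127 CPM, and Trp53 at 64.6 and 78.4 CPM. Sesn1, a stress-inducible regulator of mTOR, had the lowest ratio of the list, with 89.9 and 62.6 CPM. The summed list was 1.72 times as high in Brca1 vKO as in control GFRA1-type cells (1.68 to 1.76). The same sum was 2.15 times as high in intermediate cells (2.05 to 2.25) and 1.08 times in Sertoli cells (1.07 to 1.09).

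Single cells showed how this was distributed. Each cell was thinned to 10000 UMIs so that depth was equal. A Cdkn1a UMI was then found in 8.46% (5.38 to 12.5) of control and 58.2% (50.3 to 65.8) of Brca1 vKO GFRA1-type cells, against 1.56% and 2.78% of Sertoli cells. Without thinning a Cdkn1a UMI was in 65 of 260 and 144 of 165 cells. Ccng1 was found in 23.1% and 83.0% of the GFRA1-type cells, against 15.3% and 14.1% of Sertoli cells, and Bbc3 in 2.31% and 20.6%, against 3.70% and 4.21%. The control share of Bbc3 thus did not exceed that of Sertoli cells, and whether the Sertoli share is background was not tested. Per cell, the p53 list had a lowest, median and highest sum of 3, 12 and 27 UMIs in control cells and 3, 21 and 51 UMIs in Brca1 vKO cells. The middle 50% of cells spanned 10 to 14 UMIs in the control and 16 to 26 in the Brca1 vKO, so these parts did not overlap while the full ranges did.

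Cells with and without a Cdkn1a UMI differed in Ccng1 in both libraries. The mean of Ccng1 was 3.19 times as high in the 22 control cells with a Cdkn1a UMI as in the 238 without (1.78 to 5.47), and 1.39 times in the 96 Brca1 vKO cells with it against 69 without (1.11 to 1.75). The rest of the p53 list was 1.19 times (1.05 to 1.34) and 1.18 times (1.10 to 1.27) as high. The sum of 54 G2/M genes went in opposite directions, 1.26 times in the control (1.21 to 1.32) and 0.888 times in the Brca1 vKO (0.859 to 0.918). These cells come from the same library and differ in composition, so the ratios describe the cells and are not tests.

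**Figure D3:**
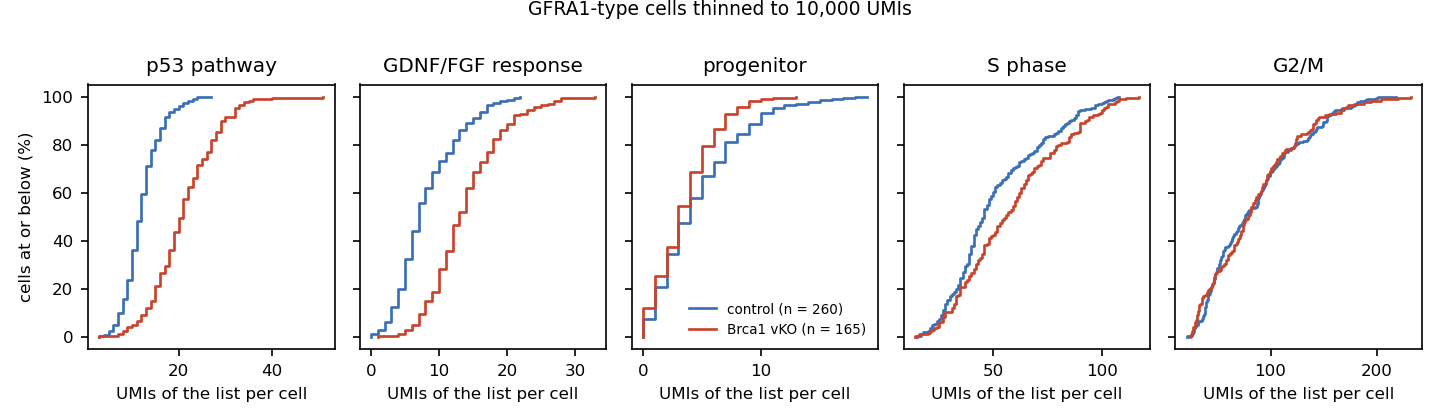
Share of GFRA1-type cells (vertical axis, percent) at or below a given sum of UMIs (horizontal axis) for 5 gene lists, with each cell thinned to 10000 UMIs and rule genes left out, in 260 control (blue) and 165 Brca1 vKO cells (red). The curves of the p53 and GDNF/FGF response lists lie apart, with medians of 12 and 21 and of 7 and 13 UMIs, while those of the G2/M genes nearly coincide.

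The receptor side of GDNF and FGF signalling stood close in the libraries. Without Gfra1 and Ret, which belong to the rule, 0 of 12 genes tested passed 2-fold, the median log2 ratio was -0.07 and the sum ratio 0.979 (0.939 to 1.02). Ret was at 137 and 135 CPM and Gfra1 at 343 and 385 CPM, and Fgfr2, a receptor for FGFs, was at 106 and 89.5 CPM.

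Among genes that respond to these ligands, Ccnd2, the G1 cyclin D2, was past 2-fold, at 276 and 612 CPM, a ratio of 2.22 (2.12 to 2.32). It was the only 1 of the 17 tested outside the rule, of which 15 had a log2 ratio above 0, with a median of 0.51. With cells thinned before the rule its log2 ratio was 0.84 and short of 2-fold. Lhx1, a gene of the rule, was at 37.9 and 159 CPM. Bcl6b, a transcriptional repressor needed for self-renewal, was at 15.02 and 38.9 CPM, a ratio of 2.59 (2.13 to 3.15), and Pou3f1, a POU-domain factor, at 78.6 and 162 CPM, a ratio of 2.06 (1.89 to 2.25). The immediate early genes Egr2 and Egr3 were at 21.6 and 45.0 CPM and at 6.91 and 20.9 CPM, and Spry4, a feedback inhibitor of receptor tyrosine kinases, at 11.3 and 24.5 CPM. Etv5 stood at 79.2 and 87.6 CPM, with a ratio of 1.11 whose interval includes 1 (0.996 to 1.23). Mycn had the lowest ratio, with 22.9 and 13.0 CPM.

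Without Lhx1, the response list came to 773 and 1366 CPM, a ratio of 1.77 (1.72 to 1.82), against 2.71 (2.50 to 2.93) in intermediate cells and 1.07 (1.06 to 1.09) in Sertoli cells. With cells thinned before the rule, the log2 ratio of Etv5 turned from 0.13 to -0.32, while that of the sum with Lhx1 was 0.65 beside 0.91. Without the rule genes, cells held a lowest, median and highest sum of 0, 7 and 22 UMIs in the control and 1, 13 and 33 in the Brca1 vKO. Lhx1 was found in 23.1% of control and 66.1% of Brca1 vKO GFRA1-type cells after thinning. It helped to choose both sets of cells, so these shares are a description only.

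Genes associated with the stem cell state did not move as a group in 1 direction. Of 15 tested, 10 were above 0 and 5 below, with a median log2 ratio of 0.30, and 3 were past 2-fold, all higher. Pax7, a paired box factor of a rare stem cell fraction, was at 5.94 CPM (4.67 to 7.46) in the control and 46.5 CPM (41.4 to 52.1) in the Brca1 vKO, a ratio of 7.83 (6.05 to 10.2). After thinning, 6.15% of control and 31.5% of Brca1 vKO GFRA1-type cells had a Pax7 UMI, against 0.0521% and 0.0793% of Sertoli cells. Nefm was at 82.4 and 252 CPM, a ratio of 3.06 (2.83 to 3.31), and found in 40.4% and 78.2% of cells. Shisa6, a WNT inhibitor of stem spermatogonia, was at 23.2 and 65.9 CPM, but also at 124 and 151 CPM in Sertoli cells, and with cells thinned before the rule its log2 ratio was 0.32. Id4 was at 81.4 and 129 CPM, a ratio of 1.58 (1.44 to 1.74), and Nanos2 at 6.18 and 7.18 CPM, a ratio of 1.16 whose interval includes 1 (0.788 to 1.70). Zbtb16, also on this list, was the lowest of the 5 genes below 0, with a log2 ratio of -0.77.

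The wider list of undifferentiated spermatogonia genes leaned downward, with 11 of 15 below 0, a median of -0.16 and 0 past 2-fold. Uchl1 was at 661 and 330 CPM, a ratio of 0.499 (0.475 to 0.523) that falls short of 2-fold on the log2(CPM + 10) scale, and Zbtb16 at 373 and 214 CPM, a ratio of 0.574 (0.540 to 0.610). Nanos3 was at 62.5 and 38.3 CPM, Lin28a, an RNA-binding protein that blocks let-7 maturation, at 51.5 and 33.0, and Itga6, the laminin receptor subunit, at 120 and 78.9. Epcam, an adhesion molecule, had the highest ratio, with 245 and 405 CPM. Sall4 stood at 104 and 112 CPM and Cdh1 at 32.5 and 30.5 CPM.

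Progenitor genes had the lowest median of the lists of spermatogonial states, at -0.55 over 8 genes tested. Upp1, a uridine phosphorylase of progenitors, was at 25.5 and 3.75 CPM, a ratio of 0.147 (0.0929 to 0.223). Sohlh1, a helix-loop-helix factor of the transition to differentiation, was at 122 and 47.6 CPM, a ratio of 0.390 (0.344 to 0.441). These were the 2 genes of the list past 2-fold. Upp1 had under 50 UMIs in the Brca1 vKO and passed the minimum through the control library. Sox3 was at 23.6 and 7.03 CPM, a ratio of 0.298 (0.212 to 0.408), which on the log2(CPM + 10) scale is -0.98.

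The same order appeared in the shares of thinned cells. Sox3 was found in 15.8% (11.6 to 20.8) of control and 6.67% (3.37 to 11.6) of Brca1 vKO GFRA1-type cells, against 0.677% of control Sertoli cells and 0 of 3781 Brca1 vKO Sertoli cells. Upp1 was found in 18.5% and 3.03%, and Sohlh1 in 156 of 260 and 54 of 165 cells. Neurog3, below the minimum for testing with 28 and 0 UMIs, was found in 4.62% of control cells and in 0 of 165 Brca1 vKO cells, where the limit set by a count of 0 is a share of 1.82%. This limits cells with a UMI and not cells that express the gene. A minimum of 5 UMIs is a lower share of Gfra1, Ret and Lhx1 in a deeper cell, and control cells were deeper. Thinning to 10000 UMIs before the rule raised that share in both libraries and kept 133 control and 121 Brca1 vKO cells. Whether depth or the mix of cells gives the values that follow was not tested. When every cell was thinned to 10000 UMIs before the rule, the log2 ratio of the progenitor sum turned from -0.43 to 0.17 and that of Nanos3 from -0.59 to 0.07. Under the same setting Sohlh1 was at -0.70, Upp1 at -0.65 and Sox3 at -0.13, each below 0 but short of 2-fold.

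Egr4 and Ddit4, also on the list, stood higher in the Brca1 vKO, at 161 and 190 CPM and at 16.2 and 26.7 CPM. Germ cell transcripts counted in Sertoli cells also differed. Sohlh1 was at 1.41 CPM in control and 0.123 CPM in Brca1 vKO Sertoli cells, and Dazl, which their definition limits, at 6.99 and 2.28. Whether these counts come from free RNA, doublets or misassigned cells was not tested, nor was the part of free RNA in the germ cell values.

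Differentiation genes were mixed. Of 12 tested outside the rule, 1 was past 2-fold higher, Ccnd2, and 1 lower, Sohlh1, with a median of -0.13. Kit, which the rule holds down in every member, was at 8.92 and 35.1 CPM, whereas Stra8, also of the rule, was at 31.2 and 25.9. Dmrt1, a sex-determining factor that restrains meiosis in spermatogonia, was at 306 and 209 CPM, and Sycp3, of the synaptonemal complex, at 167 and 90.1. Crabp1 was at 68.8 and 30.9 CPM. Among 10 pluripotency genes tested 7 were below 0 and 0 past 2-fold, Pou5f1 being at 46.5 and 20.0 CPM.

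Within each library, GFRA1-type cells were also split at the median of Gfra1, Ret and Lhx1. The split uses genes of the rule, so its ratios only describe the cells. In the control, the 108 cells above the median of these genes had 1.55 times (1.42 to 1.69) the GDNF and FGF response genes and 1.36 times (1.26 to 1.48) the stem cell genes of the 152 cells at or below it, without the rule genes. They had 0.535 times (0.470 to 0.608) the progenitor genes. Ratios of single genes were 5.63 for Bcl6b (2.54 to 14.1), 1.98 for Etv5 (1.48 to 2.65), 1.65 for Id4 (1.26 to 2.17) and 0.519 for Sohlh1 (0.401 to 0.666). The p53 list had a ratio of 0.984 (0.915 to 1.06), and the undifferentiated spermatogonia list of 0.954 (0.914 to 0.996).

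In the Brca1 vKO, the 69 cells above the median against the 96 at or below it had ratios of 1.02 (0.937 to 1.11) for the response list, 1.01 (0.914 to 1.11) for the stem cell list and 0.975 (0.823 to 1.15) for the progenitor list, and of 1.14 (1.08 to 1.21) for the undifferentiated spermatogonia list. The cells were split at 7 UMIs here and at 5 in the control, and the difference between the libraries was not tested. Kcnc2 and Glis3 had ratios of 1.52 (1.37 to 1.69) and 1.34 (1.21 to 1.48), while Bcl6b was at 0.529 (0.294 to 0.913). Rank correlations across cells were weak. Between the response and progenitor sums, Spearman's rho was -0.30 over 260 control and 0.04 over 165 Brca1 vKO cells, which share a library, its depth after thinning and the rule.

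The libraries were also set side by side within tertiles of Gfra1 and Ret per 10000 UMIs, again genes of the rule and thus a description, which held 104, 78 and 78 control and 54, 47 and 64 Brca1 vKO cells from lowest to highest. The p53 list was 1.67, 1.75 and 1.79 times as high in the Brca1 vKO. The response list was 2.13, 1.69 and 1.34 times as high. The progenitor list had ratios of 0.602 (0.511 to 0.707), 0.794 (0.653 to 0.964) and 1.15 (0.955 to 1.39). Nefm had ratios of 5.30, 3.59 and 1.53, and Zbtb16 of 0.407, 0.634 and 0.609.

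The gene cluster Hoxb on chromosome 11, which patterns the body axis in the embryo, was singled out after its values were seen. Of 10 Hoxb genes, 8 passed the minimum of UMIs, 6 of them with under 50 UMIs in the control and so through the Brca1 vKO library, and their values are given as a description. Hoxb8 (chr11:96281905-96285315, plus strand) was at 4.10 CPM (3.05 to 5.39) and 55.1 CPM (49.5 to 61.2), a ratio of 13.5 (10.0 to 18.4). Hoxb7 was at 5.94 and 44.0 CPM, Hoxb6 at 2.33 and 33.0, Hoxb4 at 3.78 and 28.9 and Hoxb2 at 0.884 and 20.9. Together the 10 Hoxb genes came to 20.6 and 229 CPM, a ratio of 11.1 (9.69 to 12.7). Intermediate cells had a ratio of 9.71 (7.601 to 12.4) and Sertoli cells of 0.881 (0.832 to 0.933).

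A UMI of any Hoxb gene was present in 10.8% (7.28 to 15.2) of control and 59.4% (51.5 to 67.0) of Brca1 vKO GFRA1-type cells after thinning, and in 23.5% and 21.5% of Sertoli cells, which is above the control share. For Hoxb8 alone the shares were 3.46% and 29.7%, against 0.156% and 0.159% of Sertoli cells. The 29 genes of the Hoxa, Hoxc and Hoxd clusters were too low to be tested, with sums of 4.66 and 14.2 CPM. The Brca1 locus lies on the same chromosome, and genes near it were examined for that reason. Of 52 genes tested within 1 Mb of Brca1, 1 was past 2-fold higher (Ramp2) and 0 lower. Of 997 on the chromosome, 19 were higher and 4 lower, beside shares of 0.715% and 0.548% over all genes. The Hoxb cluster lies on this chromosome, and 7 of its genes were past 2-fold higher.

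**Figure D4:**
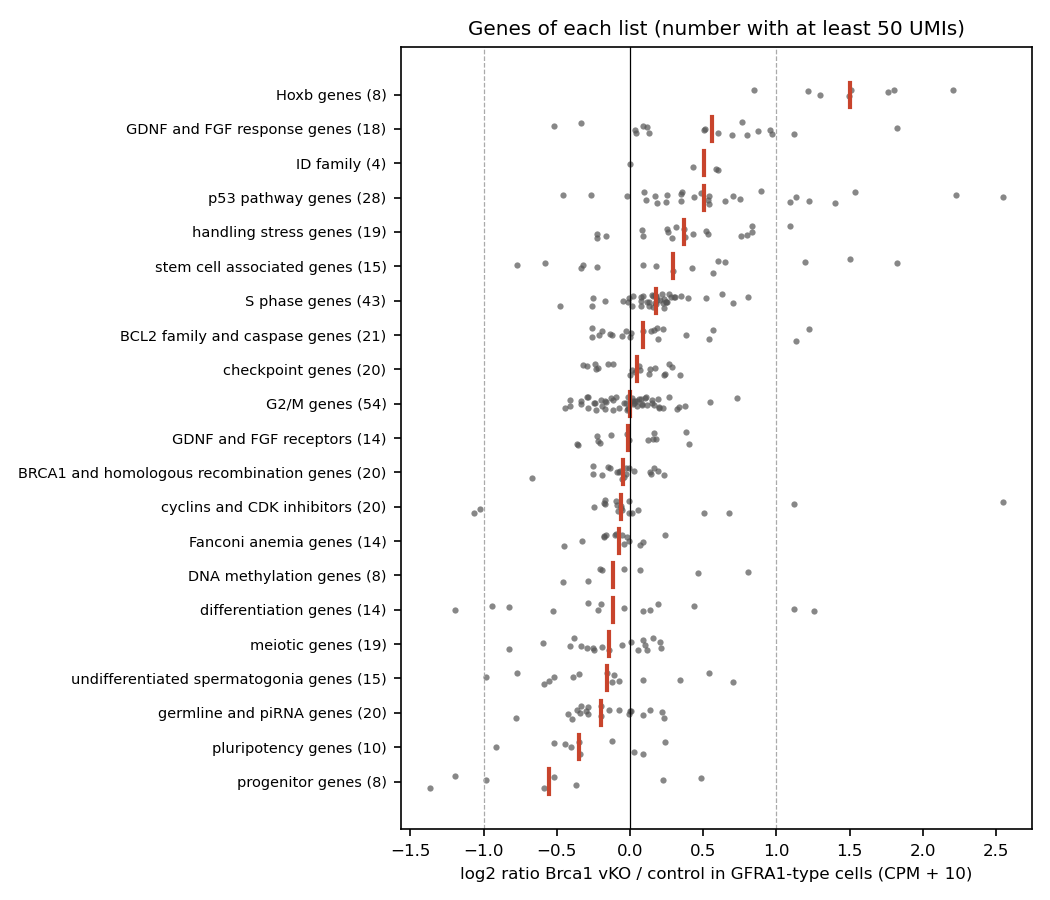
Log2 ratio of Brca1 vKO over control in GFRA1-type cells, on CPM + 10 (horizontal axis), for the genes of 21 lists (grey points), with the median of each list as a red bar, the number of genes tested in brackets and 2-fold as dashed lines. The median is -0.55 for progenitor genes and 0.51 for the p53 pathway. Rule genes are drawn in their lists, and the Hoxb genes at the top were singled out after their values were seen and passed the minimum of UMIs mostly through the Brca1 vKO library.

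No S phase or G2/M gene passed 2-fold, whereas 4 of 20 cyclins and CDK inhibitors did. Of 43 S phase genes, 36 were above 0 with a median of 0.18, a sum ratio of 1.15 (1.14 to 1.17) and 0 past 2-fold. Uhrf1, which guides DNA methylation to replicated DNA, was at 124 and 224 CPM, Rrm2, a ribonucleotide reductase subunit, at 26.1 and 48.9, and Pcna, the replication clamp, at 159 and 212. The 54 G2/M genes had a median of 0.00 and a sum ratio of 0.995, with lowest, median and highest sums of 21, 76 and 218 UMIs per thinned cell in the control and 24, 79 and 232 in the Brca1 vKO. Among the 20 cyclins and inhibitors, the 2 genes past 2-fold higher were Ccnd2 and Cdkn1a and the 2 lower Cdk6 and Cdkn1c. Cdk6, the partner of D cyclins, was at 20.1 and 4.37 CPM, with a log2 ratio of -1.07 that was -0.56 with cells thinned before the rule, and the inhibitor Cdkn1c at 61.4 and 25.1, while Cdk4 stood at 244 and 243. Cdk6 had under 50 UMIs in the Brca1 vKO and passed the minimum through the control library. Control cells above the median of the G2/M sum had 5.78 times the Cdkn1a of the others (2.20 to 19.2), against 0.887 times in the Brca1 vKO (0.663 to 1.18).

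Checkpoint genes stood close in the libraries, with a median of 0.05 over 20 genes and 0 past 2-fold. Atm and Atr, the kinases that sense DNA damage, were at 102 and 90.6 and at 89.2 and 90.3 CPM, and Chek1 at 48.6 and 51.1. The 14 Fanconi anemia genes tested, which act in crosslink repair, had a median of -0.07 and 0 past 2-fold. The 13 formaldehyde clearance and one-carbon genes had a median of 0.02 and also 0 past 2-fold, with Shmt2, the mitochondrial serine hydroxymethyltransferase, highest at 40.1 and 86.1 CPM. Among 21 BCL2 family and caspase genes only Bbc3 and Pmaip1 passed 2-fold. Apaf1, the apoptosome scaffold, was at 17.9 and 31.4 CPM, and the anti-apoptotic Mcl1 and Bcl2l1 at 91.6 and 106 and at 50.7 and 43.3.

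Several genes that were lower by the largest factors belonged to none of these groups. Rin2, a regulator of the RAB5 GTPase, was at 69.0 and 9.53 CPM, a ratio of 0.138 (0.105 to 0.179), while Sertoli cells held it at 111 and 101 CPM. A UMI of Rin2 was found in 36.5% and 7.27% of thinned GFRA1-type cells and in 56.8% and 52.1% of Sertoli cells. Esr1, the estrogen receptor alpha, was at 24.7 and 1.87 CPM, a ratio of 0.0758 (0.0387 to 0.134), against 8.46 and 8.42 in Sertoli cells. Esr1 had under 50 UMIs in the Brca1 vKO GFRA1-type cells and passed the minimum through the control library. Stox2 was at 129 and 26.4 CPM, with a log2 ratio of -1.94 that was -0.93 with cells thinned before the rule, the nucleosome-binding gene Hmgn5 at 63.5 and 11.1, and the ETS factor Erg at 174 and 42.6. Adgrl3, an adhesion receptor among the genes that set GFRA1-type apart from KIT-type cells, was at 190 and 59.4 CPM.

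Outside these groups the highest genes were Rhbdl3, a rhomboid-like membrane protein, at 11.5 and 98.7 CPM, and S100a6, a calcium-binding protein, at 13.2 and 92.6 CPM. Eif3j2, a close copy of Eif3j1 with which reads can be shared, was at 4.18 and 45.6 CPM, but also at 2.44 and 22.1 CPM in Sertoli cells, so that it differed between the libraries outside the germ line too.

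**Figure D5:**
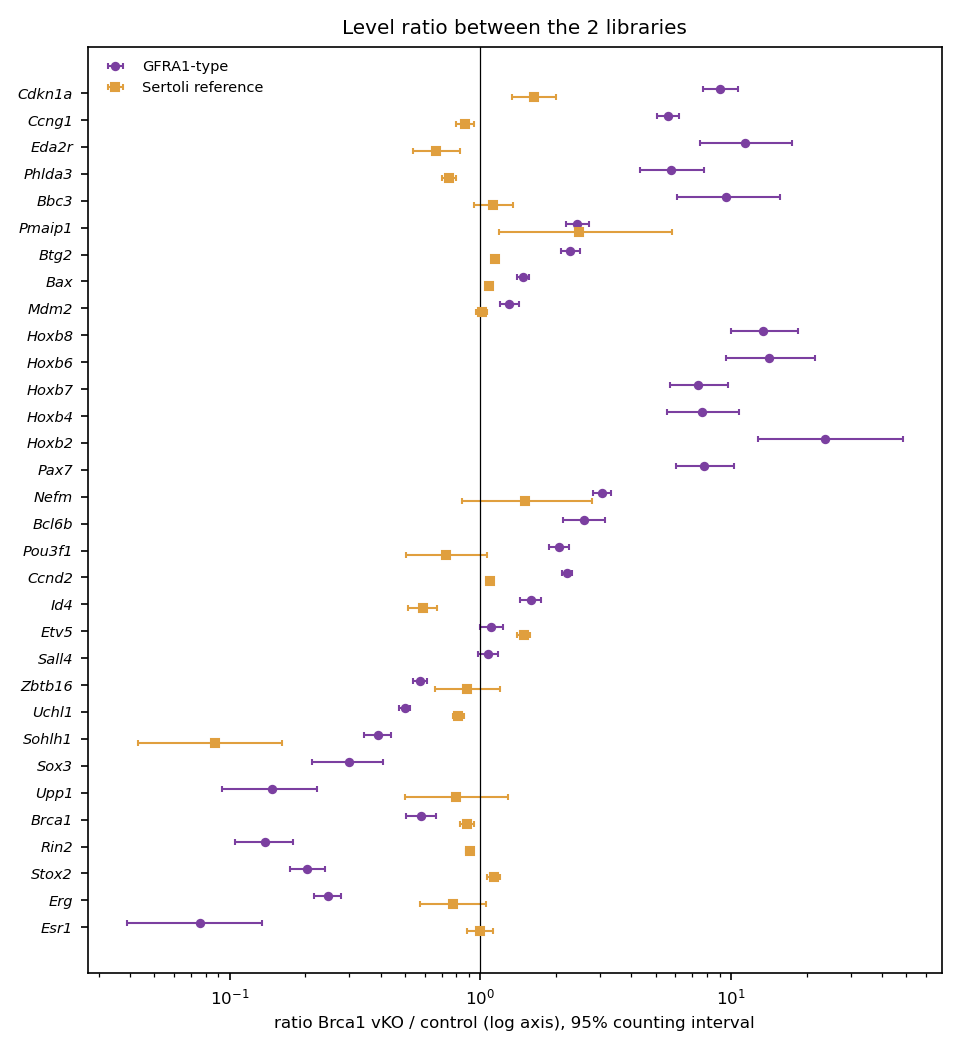
Ratio of CPM, Brca1 vKO over control, with exact 95% counting intervals on a log axis, for genes named in the text, in GFRA1-type cells (purple circles) and in Sertoli cells (orange squares; genes with fewer than 50 UMIs there are not drawn). Cdkn1a is at 9.04 in GFRA1-type and 1.63 in Sertoli cells, Ccng1 at 5.60 and 0.866, and Rin2 at 0.138 and 0.907.

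RNA of other cell types was present at low levels and differed between the libraries. The Sertoli cell list came to 309 and 385 CPM in GFRA1-type cells, with 12 of 14 genes above 0 and 0 past 2-fold. Its genes Sox9 and Amh were at 5.54 and 9.53 and at 4.58 and 6.87 CPM, and the list came to 12363 and 12784 CPM in Sertoli cells. Hemoglobin and other red blood cell genes came to 348 and 40.8 CPM. A single control cell held 2921 of these UMIs, 67.5% of the list. Neutrophil genes, a list written after the values were seen, came to 2.65 and 348 CPM, and a single Brca1 vKO cell held 93.7% of their UMIs.

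Of the 90 higher and 69 lower genes, 8 and 4 were on these blood cell lists, and without these 2 cells 79 genes were higher and 67 lower. Handling stress genes, which respond to dissociation, had a median of 0.37 over 19 genes, a sum ratio of 1.43 (1.40 to 1.46) and 1 gene past 2-fold (Btg2), against 1.16 (1.15 to 1.16) in Sertoli cells. They include Egr1, Fos and Jun, which GDNF and FGF signalling also induces. The part of these differences in the values above was not tested.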

How the data were processed

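Testes of 1 control and 1 Brca1 vKO mouse at PD7 gave 1 droplet library each. Per the labels and the methods, the authors aligned reads to mm10 and used Cell Ranger 6.0.2 to make the deposited UMI counts of each gene in each cell (submitters' processing notes), without normalization. The tables hold all barcodes called as cells, before the study's filter. R 4.2.3 and Seurat 4.3.0.1, also in these notes, were not used to make them.

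Cells were chosen by the rule given above in Python 3.11.15 with numpy 2.4.6, separately in each library, with no batch correction and no clustering. The cells and gene lists were chosen with earlier results of these data known, so no list is independent evidence. UMIs were summed over the cells of a library and divided by their total to give CPM (per 1000000 UMIs). Log2 ratios used a pseudocount of 10 CPM, which understates the ratio of low genes, and needed a total of at least 50 UMIs over both libraries, which a gene can reach through 1 of them. A gene was called at 2-fold on this scale. Poisson, Clopper-Pearson and conditional intervals at 95% came from scipy 1.17.1. They cover counting error only and not the spread between mice. For values per cell, each cell was thinned at random to 10000 UMIs. Depth was 120568700 and 165062097 UMIs. Scrublet in scanpy 1.11.5 marked doublets, which were removed only in an alternative, and TMM factors came from edgeR 4.0.16.

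Named genes were the markers, the 2 highest members and the members with the highest and lowest ratio of each list, and the 10 genes at either end of the log2 ratio between libraries. The 15 highest and 10 lowest genes between GFRA1-type and KIT-type cells, and the 10 with the largest Fano factor, were added. Further list members, the neutrophil and Hox lists and 4 of the 22 alternatives were chosen after values were seen. Coordinates are from GENCODE vM21 and promoters from RefSeq, both on GRCm38, the assembly of mm10. Of 33 p53 list genes 25 had a promoter entry.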

Additional observations from a re-analysis of the deposited data

Results flagged for a closer look

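Eda2r was 11.3 times as high in Brca1 vKO as in control GFRA1-type cells (7.55 to 17.6) but 0.666 times in Sertoli cells (0.536 to 0.829), so the libraries differed in opposite directions in the 2 cell types. The levels were 2.25 and 25.5 CPM in GFRA1-type and 2.91 and 1.94 CPM in Sertoli cells. Erg was 0.246 times as high in GFRA1-type cells (0.216 to 0.279) and 1.57 times in KIT-type cells (1.20 to 2.03), where the Brca1 vKO value rests on 8 cells. Lyz2, a lysozyme of myeloid cells, was 28.0 times as high in GFRA1-type (11.5 to 88.8) and 0.0621 times in intermediate cells (0.00156 to 0.353), on 5 and 72 UMIs in GFRA1-type cells. The summed macrophage list, in which Lyz2 was the sole gene tested, turned from a log2 ratio of 1.49 to -0.38 without the 2 cells rich in blood cell RNA. With 1 library for each genotype, none of these 3 differences between cell types was tested.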

How the results depend on the processing

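No replicate could be left out, and no paired analysis was possible because each genotype had 1 library. In all, 22 alternatives were run, 4 of them chosen after the data were seen. Of the named genes, 52 were followed through the alternatives, and others past 2-fold, such as Lyz2 and Lhx1, were not. Among the 52, the 35 genes past 2-fold had the same sign in all 19 alternatives that gave values per gene. However, 14 of these 35 fell short of 2-fold in at least 1 alternative. This held for 9 with cells thinned before the rule and for 9 with at most 5% mitochondrial UMIs. It held for 4 without the 2 cells rich in blood cell RNA. Over all alternatives, 155 values of single genes and 126 list sums moved by more than their counting interval, against 833 and 501 that did not. Summary values that moved, or counts that moved by more than 1.5 times, were these. With at most 5% mitochondrial UMIs, the share ratio of GFRA1-type cells was 0.196 (77 and 30 cells), 116 genes were lower and the Brca1 ratio was 0.442. With cells thinned to 10000 UMIs before the rule, the share ratio was 0.530, and 57 genes were higher and 37 lower of 7219 tested. With a pseudocount of 1 CPM, 291 genes were higher and 426 lower. Without cells that had any Kit or Stra8 UMI (an added alternative, 106 and 52 cells), the share ratio was 0.286 and 110 genes were lower. Higher genes were 56.6% of those called, against 34.8% with the 5% mitochondrial limit, 40.6% with the pseudocount of 1 CPM and 42.7% without Kit or Stra8 UMIs. With TMM scaling 95 genes were higher and 65 lower, and with median ratio scaling 96 and 64. The summed macrophage list, with Lyz2 as the sole gene tested, turned from a log2 ratio of 1.49 to -0.35 with doublets removed and to -0.38 without the 2 cells rich in blood cell RNA. Of the other summary values 87 moved by less. Their cause was not tested. Depth limited genes such as Neurog3, with 28 and 0 UMIs.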

Other observations

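Of 8 DNA methylation genes tested, 3 had a log2 ratio above 0 in GFRA1-type cells and 5 below, with the maintenance genes Uhrf1 and Dnmt1 among the 3. Uhrf1, which recruits the methyltransferase to hemimethylated DNA, was at 124 and 224 CPM, a ratio of 1.81 (1.68 to 1.94), and Dnmt1 was at 227 and 317 CPM, a ratio of 1.40 (1.32 to 1.48). The de novo enzymes Dnmt3a and Dnmt3b were at 50.5 and 48.9 and at 33.7 and 25.9 CPM, and the dioxygenase Tet3 at 33.25 and 21.6. In Sertoli cells Uhrf1 was at 23.4 and 23.7 CPM. Of the 8 genes tested, 0 passed 2-fold, and the median was -0.12.

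Of 18 germline and piRNA genes outside the rule, 13 were below 0 with a median of -0.24 and 0 past 2-fold, Tdrd1, a Tudor protein of the piRNA pathway, being lowest at 93.9 and 50.6 CPM. The 19 meiotic genes had a median of -0.14, also with 0 past 2-fold. Among 4 ID genes, Id3 and Id2, inhibitors of helix-loop-helix factors like Id4, were at 14.3 and 26.6 and at 2.89 and 7.34 CPM, and Id1 at 8.11 and 8.12. Aldh1a2, which makes retinoic acid, was at 16.6 and 4.69 CPM in GFRA1-type cells but at 1.77 and 18.3 CPM in Sertoli cells. The 15 retinoic acid genes tested had a median of -0.06, the 19 histone demethylase genes -0.09 and the 19 glycolysis genes 0.05, with 0 past 2-fold in any of the 3 lists. The 13 mitochondrially encoded genes had a median of 0.19, and their sum ratio was 1.08 in GFRA1-type and 0.936 in Sertoli cells.

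Hemoglobin genes led the variation between control GFRA1-type cells. By Fano factor (variance over mean of UMIs in thinned cells), Hbb-bs was highest at 272, with up to 394 UMIs in a cell, while the median over 7111 genes was 1.12. In the Brca1 vKO cells Hbb-bs was at 1.05 and the median over 7058 genes was 1.11.

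Of the marker lists for further somatic cells, the sums in GFRA1-type cells were 123 and 129 CPM for stromal, 57.3 and 32.5 for myoid, 6.35 and 7.97 for Leydig, 53.8 and 54.5 for endothelial and 4.50 and 12.7 CPM for macrophage genes.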
